A study of Glycine max with 7 samples.

Results

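Chromosome 13 of soybean (Glycine max, cultivar Williams 82) held 5171 of the 70496 binding sites mapped in this study for the transcription factors GLYMA.04G093300 and GLYMA.06G314400. A binding site is a stretch in which a peak of 1 replicate of a factor overlapped a peak of its other replicate by at least 1 bp, the overlapping peaks being joined. By this rule 2316 of 30906 GLYMA.04G093300 sites and 2855 of 39590 GLYMA.06G314400 sites lay on chromosome 13. The chromosome was chosen by the positions of these same sites, most of which lie in the middle 50% of its length, so values on position are given as a description with no test.

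The sites come from chromatin immunoprecipitation followed by sequencing (ChIP-seq), in which DNA crosslinked to a protein is recovered with an antibody and sequenced. All embryos were of Williams 82 grown in a greenhouse, were at the cotyledon stage, and were taken from seeds 3.5 to 4.5 mm long and fixed in 1% formaldehyde. Each factor had 2 ChIP libraries, made with 2 µg of an antibody to a GLYMA.04G093300 peptide (replicates 1 and 2) or 3 µg of an antibody to a GLYMA.06G314400 peptide (replicates 2 and 3). Each antibody was raised against 1 peptide, whole embryos were used so cell types are mixed, and the 3 libraries of input chromatin were not analysed here.

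A transcription factor binds short DNA motifs that lie close to the genes it acts on, and ChIP-seq peaks of such factors therefore tend to follow the genes. Soybean chromosomes usually carry most of their genes towards the ends, with a wide, repeat-rich and gene-poor region around the centromere between them. The names inside the peak lists call GLYMA.06G314400 AREB3, which in Arabidopsis is a bZIP protein of the family that binds abscisic acid response elements, and abscisic acid is the hormone of seed maturation. They call GLYMA.04G093300 HB22. No gene was assigned to a site, since no annotation of the genome build of the lists was used here.

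The lists give no read counts, so the depth of the libraries is unknown. On chromosome 13 there were 3762 and 2919 GLYMA.04G093300 peaks in replicates 1 and 2, and 3262 and 3600 GLYMA.06G314400 peaks in replicates 2 and 3. This was 7.18% to 7.43% of each list, and in all 4 lists more than on any other chromosome. Of these peaks, 63.3% and 81.8% of those in GLYMA.04G093300 replicates 1 and 2 recurred in the other replicate, against 62.7% and 80% of the whole lists. For GLYMA.06G314400 it was 89.3% and 79.9% in replicates 2 and 3, against 88.7% and 79.4%. The share of replicate 2 of GLYMA.04G093300 was above that of each of the other 19 chromosomes, which ran between 76.2% and 81.7%, and the other 3 shares lay inside the range of the other chromosomes. At the edge of the overlap rule, the least overlap that made a site was 1 bp for each factor. The nearest miss was a gap of 2 bp for GLYMA.04G093300 and 74 bp for GLYMA.06G314400. Overlaps of under 20 bp numbered 12 and 2.

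Chromosome 13 carried more sites per length than any other chromosome, for both factors. GLYMA.04G093300 had 50.5 sites per Mb on chromosome 13, against 31.9 ± 6.95 (SD, n = 19) on the other chromosomes. GLYMA.06G314400 had 62.2 sites per Mb there, against 41.0 ± 7.25 (SD, n = 19). The next in both cases was chromosome 11, with 47.1 and 56.7 sites per Mb. The same order held in each library, with 82.0 and 63.6 peaks per Mb in GLYMA.04G093300 replicates 1 and 2 and 71.1 and 78.5 in GLYMA.06G314400 replicates 2 and 3, against at most 76.2, 59.9, 64.5 and 73.3 on another chromosome. Joining the overlapping sites of both factors left 4212 regions, which together covered 5.15% of the chromosome, against 2.54% to 4.82% of the others. Chromosomes are not replicates and each is 1 of 20, so these comparisons rest on ranges and no test is given.

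The sites filled the chromosome from 1 side. In bins of 1 Mb counted from position 1, the first 14 bins held few sites, and the next 6 were intermediate on average. Those 6 held 15 to 53 GLYMA.04G093300 and 33 to 64 GLYMA.06G314400 sites, so some were as full as later bins. Each of the 26 later bins held at least 38 GLYMA.04G093300 and 46 GLYMA.06G314400 sites. Of the GLYMA.04G093300 sites, 89 lay in the first 14 Mb (6.36 per Mb), 206 between 14 and 20 Mb (34.3 per Mb) and 2021 from there to the end (78.1 per Mb). For GLYMA.06G314400 the numbers were 144, 310 and 2401, or 10.3, 51.7 and 92.8 per Mb. These 3 stretches were drawn after the bins were seen, and their densities are a description.

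**Figure D1:**
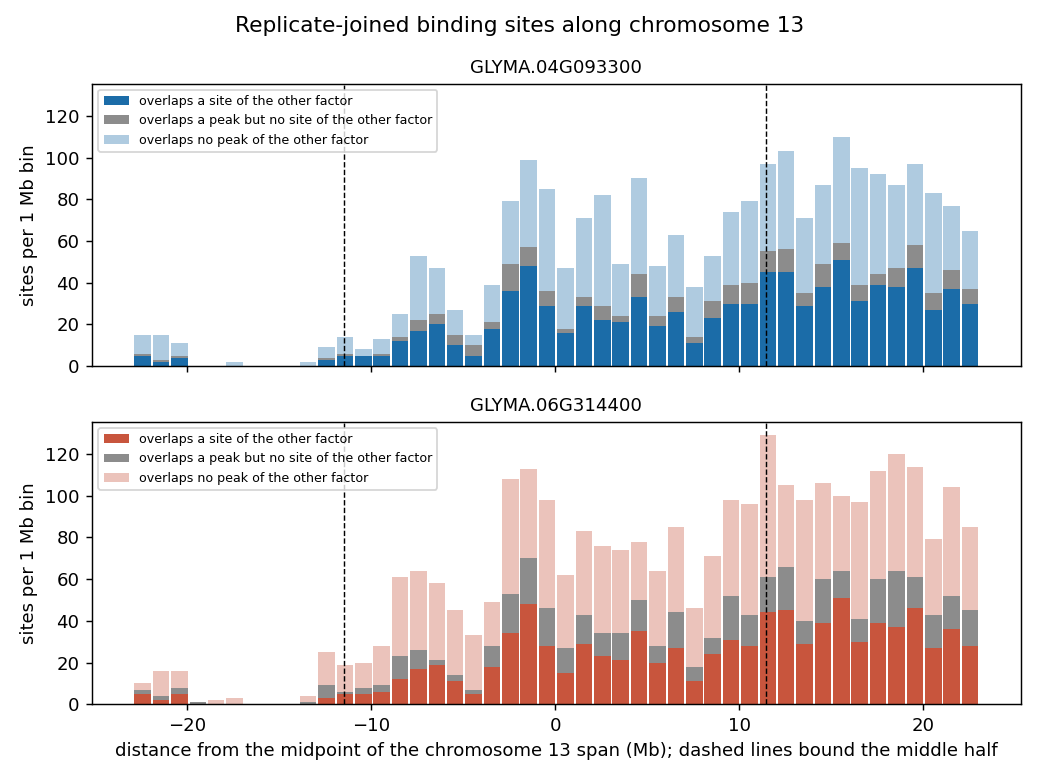
Sites of each factor in bins of 1 Mb along chromosome 13, by distance of the bin from the midpoint of the span in Mb, with colours for sites that overlap a site, a peak but no site, or no peak of the other factor. Bins left of about -9 Mb hold at most 28 sites of either factor, while the fullest hold 110 GLYMA.04G093300 and 129 GLYMA.06G314400 sites on the right.

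The emptiest part lay between about 3 and 10 Mb. No site of either factor was found in the 3 bins from 6 to 9 Mb, and GLYMA.04G093300 also had none from 3 to 5 Mb. The longest stretch without a site of either factor ran for 3149 kb, from 5897042 to 9046431, and the next for 1728 kb, from 3068652 to 4796929. These stretches were not free of peaks. The longest held 4 and 1 GLYMA.04G093300 peaks in replicates 1 and 2 and 6 and 2 GLYMA.06G314400 peaks in replicates 2 and 3, none of which met a partner. The third longest, 484 kb from 9046709 to 9531000, held no peak in any library. Nearer the start of the chromosome the first 3 bins held 15, 15 and 11 GLYMA.04G093300 sites and 10, 16 and 16 GLYMA.06G314400 sites.

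The fullest bins lay both near the middle and towards the end of the chromosome. GLYMA.04G093300 had 110 sites between 38 and 39 Mb, 103 between 35 and 36 Mb and 99 between 21 and 22 Mb. The first of these held 168 and 128 peaks in replicates 1 and 2, the second 165 and 131, and the third 158 and 130. GLYMA.06G314400 had 129 sites between 34 and 35 Mb, 120 between 41 and 42 Mb, 114 between 42 and 43 Mb and 113 between 21 and 22 Mb. The bin from 21 to 22 Mb was thus among the 5 fullest of both factors, although it lies near the middle of the chromosome. So were the bins from 34 to 35 Mb and from 42 to 43 Mb, each with 97 GLYMA.04G093300 sites. In all, 23 of 46 bins held 50 or more GLYMA.04G093300 sites and 28 held 50 or more GLYMA.06G314400 sites.

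The factors followed each other along the chromosome. Over the 46 bins, the number of sites of one factor went with that of the other (Spearman's rho 0.946, Pearson's r 0.959), as did the number of peaks in the 2 replicates of GLYMA.04G093300 (rho 0.977, r 0.989) and of GLYMA.06G314400 (rho 0.987, r 0.994). These bins come from the same libraries and genome, so the values are given without a p. GLYMA.06G314400 had more sites in 38 bins and GLYMA.04G093300 in 5, while 3 bins had none of either. Chromosome 13 had 0.811 GLYMA.04G093300 sites for each GLYMA.06G314400 site, against 0.775 ± 0.0388 (SD, n = 19) on the other chromosomes.

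Chromosome 13 had a larger share of its sites in the middle than each of the other 19. The middle 50% of its span held 53.2% of the GLYMA.04G093300 sites (1232 sites), against 7.32% to 28.5% of those on the others and 19.6% of all sites on the 20 chromosomes. It held 55.1% of the GLYMA.06G314400 sites (1574 sites), against 8.72% to 30.8% and an overall 21.6%. The highest of the other chromosomes was chromosome 8 for both factors. In the single lists, 52.9% and 53.5% of GLYMA.04G093300 peaks in replicates 1 and 2 and 55.5% and 55.25% of GLYMA.06G314400 peaks in replicates 2 and 3 lay in the middle 50%. This share is what the chromosome was chosen for.

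The first 25% of chromosome 13 was almost empty. This stretch held 58 GLYMA.04G093300 sites, or 2.50%, against 14.1% to 66.9% on the other chromosomes. It held 85 GLYMA.06G314400 sites, or 2.98%, against 15.8% to 64.2%. The last 25% held 44.3% and 41.9% of the sites of the factors, inside the ranges of 14.2% to 70.7% and 17.2% to 64.1% on the others. Between 40% and 50% of the span lay 13.3% of the GLYMA.04G093300 sites and 13.3% of the GLYMA.06G314400 sites, against means of 2.05% and 2.59% on the others. Being lopsided was not in itself rare, since the fuller side of the midpoint held 76.2% of GLYMA.04G093300 sites on chromosome 13 and more than that on 5 other chromosomes.

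**Figure D2:**
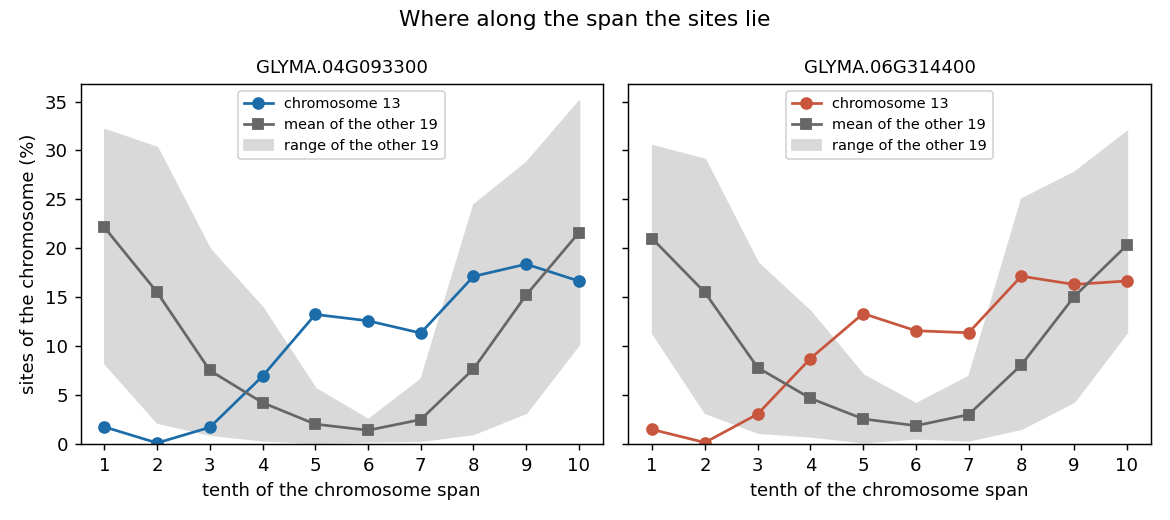
Share of a chromosome's sites (%) in each 10% step of its span, for chromosome 13 (coloured line), the mean of the other 19 chromosomes (grey line) and their range (grey band). Chromosome 13 lies under the band in the first 20% of the span and above it between 40% and 70%, where it holds 11.4% to 13.3% of its sites per step.

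The sparse part of chromosome 13 was within the range of the other chromosomes in its number of sites and outside it in its place. The 10 Mb window with the fewest sites of both factors together ran from 0 to 10 Mb and held 97 sites, against 37 to 204 sites in the poorest windows of the others. Its centre lay at 10.9% of the span, whereas on the other 19 chromosomes the centres ran from 28.4% (chromosome 3) to 67.4% (chromosome 12). The densest part was likewise within the range, while a larger share of the chromosome was densely filled. The richest 10 Mb window held 1995 sites, from 33 to 43 Mb, and fell inside the range of 1105 to 2127 on the others. Bins with 50 or more sites made up 50% of chromosome 13 for GLYMA.04G093300 and 60.9% for GLYMA.06G314400, against 13.2% to 48.6% and 22.8% to 51.4% of the others. Bins with fewer than 20 sites of both factors together made up 15.2% of chromosome 13, against 20% to 49.1%.

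The share of sites that the 2 factors had in common on chromosome 13 lay within the range of the other chromosomes. Of the GLYMA.04G093300 sites, 941 or 40.6% (95% exact binomial interval 38.6 to 42.7) overlapped a GLYMA.06G314400 site, against 40.4% (39.9 to 41.0) on the other 19 chromosomes and 40.5% of all sites of the factor. For GLYMA.06G314400 the number was 938, or 32.9% (31.1 to 34.6), against 31.3% (30.8 to 31.8) on the others and 31.4% of all. The intervals cover counting error only. Chromosome 13 ranked 9 of 20 by the share of GLYMA.04G093300 sites and 3 of 20 by that of GLYMA.06G314400 sites, behind chromosomes 11 and 17. Specific sites, which met no peak in any list of the other factor, made up 49.4% for GLYMA.04G093300 (1143 sites) and 50.9% for GLYMA.06G314400 (1452 sites), against 49.6% and 53.1% on the others and 49.6% and 53.0% of all sites. The remaining 232 and 465 sites overlapped a peak that had not recurred. Where sites of the factors overlapped on chromosome 13, in 959 pairs, the summits (the highest points of the peaks) lay a median of 132 bp apart, against 136.5 bp on the others, and 39.1% of pairs had summits within 100 bp, against 39.02%.

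**Figure D3:**
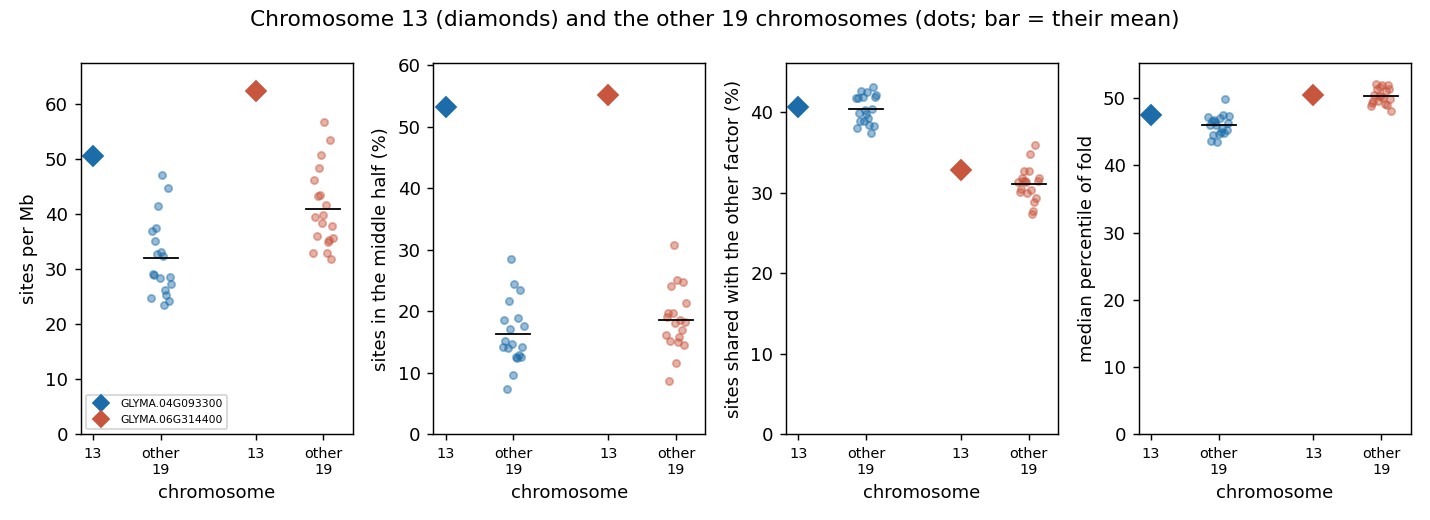
Sites per Mb, share of sites in the middle 50% of the span, share of sites overlapping a site of the other factor and median percentile of fold, for chromosome 13 (diamond) and each of the other 19 chromosomes (dots, with their mean as a bar). Chromosome 13 stands above the dots in the first 2 panels, with 50.5 and 62.2 sites per Mb, and among them in the last 2.

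Along chromosome 13 the sharing of GLYMA.06G314400 sites went with position. In the 4 successive 25% stretches of the span it was 18.8% (16 of 85 sites), 30.1% (205 of 682), 32.0% (285 of 892) and 36.1% (432 of 1196). The interval of the first was 11.2 to 28.8 and that of the last 33.4 to 38.9. These cover counting error over sites of the same 2 libraries and are not a test. On the other 19 chromosomes the 4 shares were 32.6%, 28.8%, 25.8% and 31.7%. For GLYMA.04G093300 the shares on chromosome 13 were 25.9% (15 of 58), 41.9%, 38.2% and 42.6%, and the first rests on few sites, with an interval of 15.3 to 39.04. On the others they were 41.0%, 40.5%, 39.9% and 39.9%. In the middle 50% of chromosome 13, 31.1% (28.8 to 33.5) of GLYMA.06G314400 sites were shared, against 27.6% (26.5 to 28.6) in the middle 50% of the others. In the outer 50% it was 35.0% on chromosome 13, against 32.1%.

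The shares were also set out by local density, the number of sites of the factor in the 1 Mb bin. In bins with 80 or more GLYMA.06G314400 sites, 35.1% (32.9 to 37.3) were shared on chromosome 13, against 34.7% (34.1 to 35.4) on the others. In bins of 50 to 79 sites it was 31.0% (27.6 to 34.6), against 30.8% (29.9 to 31.7). Bins of 20 to 49 sites ran the other way, with 24.0% (18.8 to 29.8) on chromosome 13 against 26.3% (25.1 to 27.5). Bins with fewer than 20 sites gave 23.9% (14.6 to 35.5) and 22.0% (20.6 to 23.5). For GLYMA.04G093300 the shares on chromosome 13 were 32.7%, 39.7%, 41.9% and 40.8% from the sparsest to the densest bins, against 37.6%, 40.2%, 39.95% and 41.9% on the others. All 4 intervals of each factor overlapped those of the other chromosomes. Wider coverage by one factor gives the other more to overlap, and these shares have nothing taken off for chance.

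**Figure D4:**
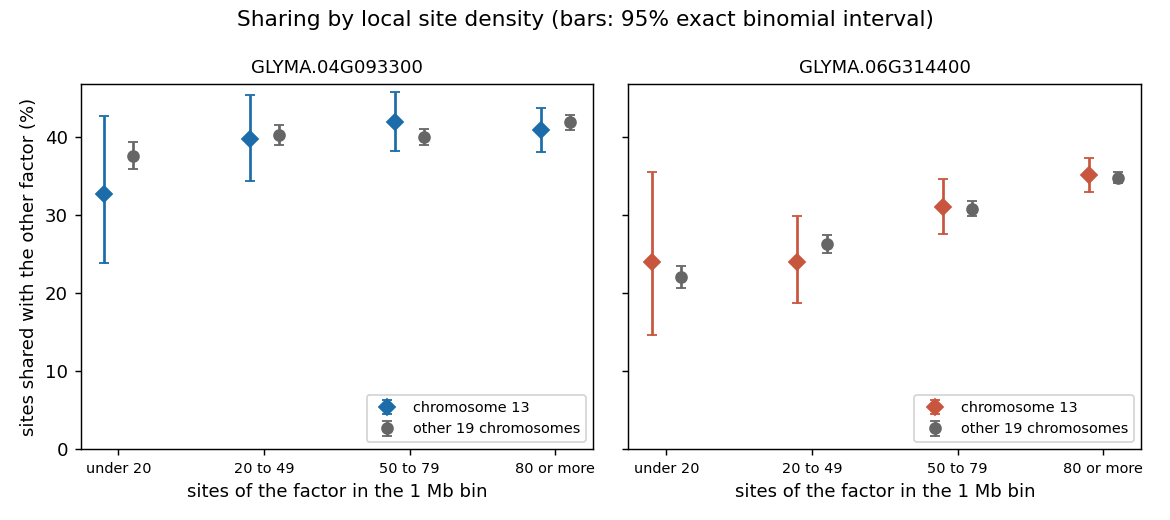
Share of sites (%) that overlap a site of the other factor, by the number of sites of the factor in the 1 Mb bin, for chromosome 13 (diamonds) and the other 19 chromosomes (circles), with 95% exact binomial intervals. For GLYMA.06G314400 both sets run from 23.9% and 22.0% in the sparsest bins to 35.1% and 34.7% in the densest.

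Median strength on chromosome 13 lay within the range of the other chromosomes. The strength of a site is here the smaller of its 2 percentiles of fold, each within its own list, and the fold is the enrichment that the authors' peak caller gave. The median strength was 47.5 on chromosome 13 against 46.1 on the others for GLYMA.04G093300, and 50.5 against 50.4 for GLYMA.06G314400. In the single libraries the median fold of the chromosome 13 sites was 4.97 and 4.09 in GLYMA.04G093300 replicates 1 and 2 and 7.16 and 8.20 in GLYMA.06G314400 replicates 2 and 3. On the other chromosomes it was 4.89, 4.10, 7.20 and 8.27. Each factor had 70 chromosome 13 sites among its 1000 strongest. That is 3.02% (2.36 to 3.80) of its GLYMA.04G093300 sites, with 3.24% of all sites in that class, and 2.45% (1.92 to 3.09) of its GLYMA.06G314400 sites, with 2.53% of all. GLYMA.04G093300 sites had a median width of 445 bp on chromosome 13 and of 445 bp on the others. GLYMA.06G314400 sites had 485 and 488 bp on the same sets.

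Shared sites had higher median strength and width than specific ones on chromosome 13, as on the other chromosomes, with no test. GLYMA.04G093300 shared sites had a median strength of 54.5 and a width of 511 bp, against 40.8 and 408 bp for specific sites. For GLYMA.06G314400 it was 59.1 and 551 bp, against 46.8 and 442 bp. On the other 19 chromosomes GLYMA.04G093300 had 54.2 and 495 bp for shared sites, against 39.9 and 409 bp for specific ones. GLYMA.06G314400 had 57.9 and 555 bp on them, against 46.1 and 449 bp. In the strongest 20% of GLYMA.04G093300 sites genome-wide, 50.3% of the 495 on chromosome 13 were shared, and in the weakest 20%, 35.1% of 459. On the others it was 53.6% and 33.4%. A wider site has more room to overlap, and the part of width in this was not tested. Of the 70 strongest-class sites, 43 of GLYMA.04G093300 (61.4%) and 37 of GLYMA.06G314400 (52.9%) were shared, against 61.3% and 43.4% of that class on the others.

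Of the 10 strongest GLYMA.04G093300 sites on chromosome 13, 5 were shared, 4 were specific and 1 overlapped a single GLYMA.06G314400 peak. Over all sites of the factor, 40.5% were shared and 49.6% specific. Among the 100 strongest on chromosome 13, 60 were shared and 28 specific. The 10 stood between 10 and 83 in the genome-wide order, with folds of 15.9 to 23.6 in replicate 1 and 12.5 to 19.1 in replicate 2. In the middle 50% lay 7 of the 10, against 53.2% of all GLYMA.04G093300 sites on the chromosome. The strongest, from 32211967 to 32212953, had folds of 22.5 and 17.1 in replicates 1 and 2 and met no GLYMA.06G314400 peak. The next, from 37452931 to 37453596, had folds of 18.4 and 15.2, and a GLYMA.06G314400 peak of fold 3.59 in replicate 3 alone. It is the 1 site of the 10 in neither class. A site from 30123472 to 30124034 had folds of 18.3 and 13.8 where GLYMA.06G314400 reached 4.90 and 3.07 in replicates 2 and 3, so a strong site of one factor was shared with a weak one of the other. The site from 45540891 to 45541921, nearest the end of the chromosome among the 10, had GLYMA.04G093300 folds of 16.4 and 13.5 and GLYMA.06G314400 folds of 8.31 and 10.9.

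Further strong GLYMA.04G093300 sites that met no GLYMA.06G314400 peak lay from 23697903 to 23698760, with folds of 18.0 and 13.4 in replicates 1 and 2, and from 19398163 to 19399015, where the folds were 16.8 and 19.1. The site starting at 19398163 had a higher fold in replicate 2 than in replicate 1, unlike the other 9 of the 10. The site from 33844307 to 33844741 was the narrowest of the 10 at 435 bp, with folds of 15.9 and 12.8. The next strongest specific site, from 24606561 to 24607095, had folds of 12.7 and 13.98. These specific sites lay between 42.3% and 73.8% of the span, that is inside the middle 50%. Of all GLYMA.04G093300 specific sites on chromosome 13, 53.9% lay there, and the chromosome was chosen on such positions.

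Of the 10 strongest GLYMA.06G314400 sites on chromosome 13, 7 were specific and 3 were shared. Over all sites of the factor, 53.0% were specific and 31.4% shared. The larger set of the 100 strongest on chromosome 13 ran the other way, with 33 specific and 54 shared. Folds of the 10 ran from 41.1 to 63.2 in replicate 2 and from 44.2 to 66.3 in replicate 3. The 10 stood between 2 and 184 in the genome-wide order. The strongest, from 13161703 to 13162533, had folds of 63.2 and 66.3 in replicates 2 and 3 and was second among all 39590 sites. The next, from 10767462 to 10768608, had folds of 56.7 and 51.5. Both lie in the sparse first 14 Mb and met no GLYMA.04G093300 peak. Sites from 37560231 to 37561290 (folds 54.6 and 50.2), from 43182484 to 43183293 (45.8 and 47.6) and from 26697420 to 26698214 (52.7 and 45.8) complete the 5 strongest specific ones. The strongest shared site, from 39902022 to 39902891, had folds of 48.4 and 49.96 for GLYMA.06G314400 and 7.27 and 6.91 in GLYMA.04G093300 replicates 1 and 2.

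Places strong for both factors were few on chromosome 13 and on the others. The class of the 1000 strongest is itself small, with 3.24% of all GLYMA.04G093300 and 2.53% of all GLYMA.06G314400 sites. In 4 of the 959 overlapping pairs both sites were among the 1000 strongest of their factor, against 42 of 11716 pairs on the others. At 20155052 to 20155853 the folds were 23.6 and 13.8 in GLYMA.04G093300 replicates 1 and 2 and 41.1 and 45.2 in GLYMA.06G314400 replicates 2 and 3, with summits 58 bp apart, and it is the 1 region among the 10 strongest of both. The region from 44101680 to 44103787, 2108 bp long, showed GLYMA.04G093300 at folds of 18.0 and 15.0, with GLYMA.06G314400 at 41.9 and 42.0, but the summits were 347 bp apart. In the region from 27195995 to 27197023 the folds were 11.2 and 10.2 and then 42.8 and 33.0, with summits 118 bp apart. The last of the 4, from 40820833 to 40821606, had summits 209 bp apart. The next region by rank, from 33386341 to 33387377, had summits 192 bp apart and falls outside the 4, since its GLYMA.04G093300 site ranked 1073.

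The sparse first 14 Mb held few sites, and these were not weak. Their median strength reached 47.3 among GLYMA.04G093300 and 58.0 among GLYMA.06G314400 sites, against 47.5 and 50.5 from 20 Mb to the end. Median folds of the GLYMA.06G314400 sites were 8.22 and 8.56 in replicates 2 and 3 in the first 14 Mb, against 7.11 and 8.21 from 20 Mb on. Specific sites made up 63.2% (54.8 to 71.1) of the 144 GLYMA.06G314400 sites there, against 48.7% (46.7 to 50.8) of the 2401 from 20 Mb on. For GLYMA.04G093300 it was 60.7% (49.7 to 70.9) of 89, against 48.99% (46.8 to 51.2), and these intervals overlap. Shared sites made up 21.5% of the GLYMA.06G314400 and 32.6% of the GLYMA.04G093300 sites in the first 14 Mb. In bins with fewer than 20 sites of the factor on the other chromosomes it was 22.0% and 37.6%. For GLYMA.06G314400 the bins from 10 to 11, 12 to 13 and 13 to 14 Mb fell outside that class, with 25, 20 and 28 sites. Bins of 20 to 49 sites on the other chromosomes gave 26.3% for GLYMA.06G314400. None of the 89 GLYMA.04G093300 sites was among the 1000 strongest, and 4 of the 144 GLYMA.06G314400 sites were. The strongest GLYMA.04G093300 site there, from 13871401 to 13871879, had folds of 9.56 and 8.48 and was specific, and a shared site from 13872342 to 13872718, with folds of 10.3 and 7.89, lay beside it.

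Of the 3 widest sites of each factor, all but 1 were shared. Over all sites, 40.5% of GLYMA.04G093300 and 31.4% of GLYMA.06G314400 sites were shared. A wider site has more room to overlap, and these sites were picked by width. The widest GLYMA.04G093300 site, 3078 bp from 24596738 to 24599815, joined 4 peaks and had folds of 8.45 and 4.52 in replicates 1 and 2, where GLYMA.06G314400 had 11.9 and 20.7. The widest GLYMA.06G314400 site, 2542 bp from 38121873 to 38124414, joined 3 peaks and had folds of 47.7 and 38.2 in replicates 2 and 3. The specific one lay near the start of the chromosome, from 1066674 to 1068886, with GLYMA.06G314400 folds of 25.4 and 26.3. Sites of 1000 bp or more made up 5.05% of the GLYMA.04G093300 sites (117) and 4.34% of the GLYMA.06G314400 sites (124), against 4.58% and 4.53% on the others.

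The 3 weakest GLYMA.06G314400 sites of the chromosome lay close together, and the peaks around them differed from others in these lists. The 3 lowest of its 2855 sites all fell between 38809975 and 38850698, with folds of 2.14 to 2.23 in replicate 2. In this neighbourhood the −log10 q was high for the fold. A stretch of 59.1 kb, from 38798498 to 38857550, held 21 and 16 GLYMA.04G093300 peaks in replicates 1 and 2 and 11 and 13 GLYMA.06G314400 peaks in replicates 2 and 3. Their −log10 q was a median of 2.98, 3.11, 2.87 and 2.89 times that of peaks of similar fold in the same list. At least 2 times was reached by 18 of 21, 16 of 16, 8 of 11 and 11 of 13 of them, and by none of the 37 to 45 peaks of each list within 200 kb on either side. The edges of the stretch were set on this same value, at the first and last such peaks of any list in the neighbourhood. The nearer part of each flank could therefore hold none. In whole lists, 0.247%, 0.214%, 0.115% and 0.144% of peaks reached it, and no other 50 kb bin of the genome held as many in any of the 4 lists.

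The peak of highest fold in the stretch shows the size of the difference. In GLYMA.04G093300 replicate 1 a peak from 38850060 to 38850872 had a fold of 10.5 and a −log10 q of 160, where the 25 chromosome 13 peaks nearest in fold had 37.7 to 56.3. In GLYMA.06G314400 replicate 3 a peak from 38798571 to 38799310 had a fold of 13.8 and a −log10 q of 176, against 55.5 to 98.7. The stretch was crowded with weak peaks, with 1 GLYMA.04G093300 peak every 2.81 and 3.69 kb in replicates 1 and 2 and 1 GLYMA.06G314400 peak every 5.37 and 4.54 kb in replicates 2 and 3, against every 8.89, 10.8, 10.0 and 10.0 kb in the flanks. Most of the weakest sites of the chromosome lay elsewhere. Of the 14 chromosome 13 sites among the 100 lowest of GLYMA.06G314400, 4 lay in the stretch, and for GLYMA.04G093300 it was 2 of 13. In all, the stretch held 16 GLYMA.04G093300 and 11 GLYMA.06G314400 sites. Without them the bin from 38 to 39 Mb has 94 GLYMA.04G093300 sites in place of 110, and the fullest bin of that factor is then the one from 35 to 36 Mb with 103. The stretch was found after the data were seen, and what lies behind it was not tested.

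**Figure D5:**
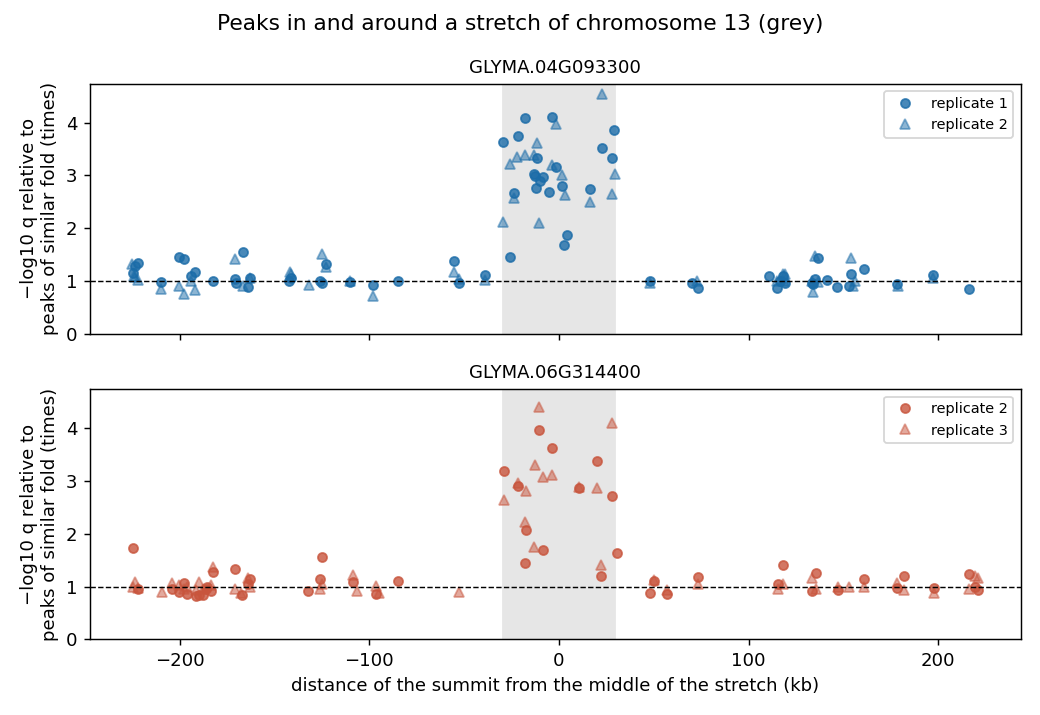
The −log10 q of each peak divided by the median of peaks of similar fold in its list (times), by distance of its summit from the middle of the stretch in kb, for both replicates of each factor, with the 59.1 kb stretch in grey and the dashed line at 1. Peaks inside the stretch reach up to 4.55 times, and those outside stay at or under 1.73 times. The edges of the stretch were set by the peaks of at least 2 times, which fixes part of this contrast.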

How the data were processed

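Peaks were called by the authors separately in each of the 4 ChIP libraries, per the names in the deposited lists. The submitters' processing notes name Bowtie 0.12.7 and MACS3, without settings, while build, aligner settings and control remain not given in the sources used here. For every peak the deposited lists hold a fold enrichment (a ratio within that library), −log10 of the p-value and of the q-value, the offset of the summit and a whole-number score that went unused. The largest q-value in the deposited lists was 0.0099. Fold was ranked within a list only. Positions are 1-based, and a chromosome's span runs from 1 to its highest peak end in any list. Of joined peaks, a site takes the highest fold per replicate and the summit of the peak with the highest percentile of fold.

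The members, lists and stretches were chosen with earlier results of these data known. Named sites were the 10 strongest of each factor, the 5 strongest specific ones, the 5 highest in both, the 3 widest, the fullest and emptiest bins and the longest empty stretches. The 3 lowest sites and the strongest in the first 14 Mb were added after their values were seen. No test was run over libraries, since 2 against 2 cannot give an exact permutation p (two-sided) below 0.333. The series' design text calls the replicates biological. The names inside the lists number the replicates differently from the labels, and each replicate number given here is that of the labels. The planned motif search was not run, as it needs the same genome. The −log10 q of a peak was set against the median over peaks in the same 2% of its list by fold. Intervals are exact Clopper-Pearson, at 95%. The overlap code was tested on simulated data and matched an exhaustive count. Alternatives were a 50% overlap, summits within 100 bp, a q of 1e-05, the 10000 highest peaks per list, sites of 200 bp, other bins and spans, and each library left out. The alternative with a reference chromosome length was not run, as no genome of the build of the lists was used here. The work was done in Python 3.11.15 with scipy 1.17.1 for intervals, pandas 2.3.3, matplotlib 3.10.9 and numpy 2.4.6.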

Additional observations from a re-analysis of the deposited data

How the results depend on the processing

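Chromosome 13 had the most sites per Mb and the highest share in the middle 50% of the 20 chromosomes, for both factors, in each alternative run. The share in the middle 50% stayed between 52.5% and 53.6% for GLYMA.04G093300 and between 54.7% and 55.5% for GLYMA.06G314400. The shares of sites overlapping the other factor moved with what counts as overlap. In the order GLYMA.04G093300, GLYMA.06G314400 they were 26.6% and 19.7% with an overlap of 50% of both, 16.8% and 11.5% with summits within 100 bp, 26.8% and 21.7% with sites of 200 bp, and 16.2% and 13.3% with the 10000 highest peaks per list. The other 19 chromosomes gave 26.9% and 18.7%, 16.0% and 10.6%, 26.7% and 20.8%, and 16.5% and 12.8%. At a q of 1e-05 the GLYMA.06G314400 share was 29.5%. The rank of chromosome 13 by sharing ran from 6 to 11 and from 2 to 7 of 20. With the 10000 highest peaks there were 499 and 607 sites, fewer by construction, and the median strength of GLYMA.06G314400 was 45.0. Leaving out each library gave 2919 to 3762 GLYMA.04G093300 and 3262 to 3600 GLYMA.06G314400 peaks in place of sites, of which 3762 is without GLYMA.04G093300 replicate 2, and shares of 35.8% to 48.1% and 30.5% to 45.5%. No paired analysis was possible because the factors share 1 replicate number in the labels, and the names inside the lists number the libraries differently. Using only the libraries numbered 2 gave a GLYMA.04G093300 share of 37.6%, and only those numbered 1 and 3 gave 42.8% and 44.0%. The stretch of 59.1 kb left out, chosen after seeing the data, moved none of these by more than its counting error. The depth of the libraries, which limits the length of every list, is unknown.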

Other observations

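The spacing of neighbouring sites on chromosome 13 lay within the range of the other chromosomes. The median distance between the summits of neighbouring sites was 7.69 kb for GLYMA.04G093300 and 7.25 kb for GLYMA.06G314400, against 8.90 ± 1.31 kb and 8.26 ± 0.741 kb (SD, n = 19) on the other chromosomes, whose ranges were 6.39 to 11.04 kb and 6.89 to 9.67 kb. Of neighbouring pairs, 39.7% and 39.8% lay within 5000 bp, against 33.7% to 43.4% and 32.3% to 40.4%. The folds of the 2 replicates ranked the sites of chromosome 13 less alike for GLYMA.04G093300 than for GLYMA.06G314400. Spearman's rho was 0.594 over 2316 GLYMA.04G093300 sites and 0.855 over 2855 GLYMA.06G314400 sites. On the others it was 0.525 to 0.594 and 0.829 to 0.858. The summits of the 2 replicates lay a median of 42 and 22 bp apart on chromosome 13.

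Peaks of high −log10 q for their fold also gathered away from chromosome 13. The bin on chromosome 19 from 43700001 to 43750000 held 9 of 10 and 8 of 9 such peaks in GLYMA.04G093300 replicates 1 and 2, and 5 of 7 in each GLYMA.06G314400 library. On chromosome 12 from 39150001 to 39200000 it was 8 of 13 in GLYMA.04G093300 replicate 1, and 3 of 7 and 4 of 9 in GLYMA.06G314400 replicates 2 and 3. In GLYMA.04G093300 replicate 2 that bin was not among the 5 with the most such peaks, the last of which held 2. These bins were noticed after the data were seen.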
